A study of Mus musculus with 3 samples.

Results

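The genes described here are 32 genes of cholesterol and fatty acid synthesis, of 20605 genes counted, in single cells of mouse mammary tumours grown in collagen I or in Matrigel. They were chosen by name, with earlier results of these data known, so their counts against all genes are a description. The sterol branch has 21 of them, from acetyl-CoA to cholesterol with its regulator, brake and carrier, and the fatty acid branch has 11. All 32 passed the filter on low counts and were tested.

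The tumour cells came fresh from 4 C3(1)-Tag mice of the FVB strain, 25 to 30 weeks old, with tumours of 20 mm. In this transgenic line a viral large T antigen under the C3(1) promoter drives mammary carcinoma, and all groups of tumour cells carry it. Cells of each mouse were embedded as organoids in collagen I, the fibrous collagen of stroma, or as clusters in Matrigel, a basement membrane extract rich in laminin. Both received DMEM/F12 with 1% ITS (insulin, transferrin and selenium), 1% PS and 2.5 nM FGF2. Cells were taken on day 0 (12 h after plating), day 3 and day 5. Cells of 4T1, a mouse mammary carcinoma line that metastasises, served as the shared comparison. They were grown on plastic at passage 2 in RPMI-1640 with 10% FBS and 1% PS, and were put into every pool. Collagen gels were opened with collagenase (2 mg/ml for 10 min, warm) and Matrigel with EDTA (10 mM for 30 min, on ice), so the matrix and the release step cannot be told apart. Each day was 1 pool and 1 library, so the day and the pool cannot be told apart either. In the annotation of cells the earliest day is written D1, which was matched to the day 0 pool because the other pools match by name.

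Cells build cholesterol from acetyl-CoA through mevalonate, the isoprenoid farnesyl pyrophosphate, squalene and lanosterol. The transcription factor SREBP2, encoded by Srebf2, raises most genes of this route when membranes run short of sterol, and INSIG1 holds the factor back in the endoplasmic reticulum when sterol is plentiful. SREBP1, encoded by Srebf1, acts mainly on fatty acid synthesis, elongation and desaturation, and also responds to insulin and to the oxysterol receptor LXR. In the mammary gland fatty acid synthesis is best known from milk fat production in lactation.

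Promoter windows of 25 of the 32 genes were matched in RefSeq (GRCm38.p6, 250 bases before to 50 bases after the start). The sterol regulatory motif TCACNCCAC, read on both strands, was found for 1 of the 25 genes, Hmgcs1, against 1.44% of 27025 genes. Counted by window, it was in 1.24% of 32851 windows of the same length. The pentamer CCAAT, the core of the NF-Y site, was found on either strand for 20 of the 25 genes, against 41.1% of all genes with a window (37.4% of all windows). The Hmgcs1 window is shown because it is the one that holds the sterol motif. It lies on the plus strand at chr13:119690101-119690400, the capitals mark the motif TCACCCCAC, which begins at position -137 from the start, and the window holds 4 CCAAT matches.
Hmgcs1 promoter: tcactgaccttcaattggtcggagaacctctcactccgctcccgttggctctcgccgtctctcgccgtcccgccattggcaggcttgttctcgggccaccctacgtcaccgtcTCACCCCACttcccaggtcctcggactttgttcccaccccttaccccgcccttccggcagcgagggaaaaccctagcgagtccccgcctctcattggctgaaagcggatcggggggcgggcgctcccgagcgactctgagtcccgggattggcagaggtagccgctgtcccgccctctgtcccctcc
These matches are letters in a window and were not tested as binding sites.

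The counts came from 6957 of 6970 cells labelled as tumour, after 337 cells in clusters that resembled macrophages, fibroblasts, or T and NK cells had been left out. The other 13 cells were too few for a sum. Counts were added up per mouse, matrix and day into 21 sums of 38 to 1148 cells and 1831436 to 46657709 UMIs (unique molecular identifiers, each 1 captured RNA molecule). Collagen had 4, 4 and 3 mice on days 0, 3 and 5, and Matrigel had 4, 4 and 2. Median UMIs per cell were higher on later days, at 15888, 36612 and 54948.5 in collagen and 16131, 41030 and 59399 in Matrigel. Cells of clusters with few UMIs made up 27.4% on day 0 in collagen and 15.3% in Matrigel, and at most 4.51% later. The 7 luminal keratin and junction markers summed to between 3899 and 7741 CPM (counts per 1000000) in every sum and the 6 basal markers to between 980 and 5123 CPM, as in mammary epithelium. Markers of other cells summed to at most 6.90 CPM for adipocytes (3 genes, Plin1 at 0 in 5 of the 6 groups), 31.2 CPM for fibroblasts, 80.9 CPM for T and NK cells, 341 CPM for macrophages and 743 CPM for neutrophils (3 genes, highest in a Matrigel sum of day 3). Of the cells labelled as tumour, 56 lay in the cluster of the 4T1 line, 42 of them on day 0, and the calls that changed without them are given beside the results. Pools shared 11 cell barcodes. In summed counts, fewer expressing cells and less RNA per cell cannot be told apart.

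Both branches were higher on day 3 than on day 0 in both matrices, in every mouse. The branch sums were not tested, and the tests of their genes follow. The summed level of the 21 sterol genes in collagen was 2421 ± 132 CPM on day 3 and 1061 ± 199 CPM on day 0 (SD, n = 4 mice each), 2.31-fold higher. In Matrigel it was 2850 ± 706 CPM on day 3 and 828 ± 17.1 CPM on day 0 (n = 4 each), 3.36-fold higher. The summed level of the 11 fatty acid genes in collagen was 649 ± 94.2 CPM on day 3 and 303 ± 71.6 CPM on day 0, and in Matrigel 689 ± 175 CPM on day 3 and 208 ± 19.9 CPM on day 0. The day 3 and day 0 mice did not overlap in either branch or matrix. On the log2 scale the single mice were higher by 0.81 to 1.44 in collagen and 1.31 to 2.11 in Matrigel for the sterol branch, and by 0.54 to 1.51 and 1.22 to 2.09 for the fatty acid branch.

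**Figure D1:**
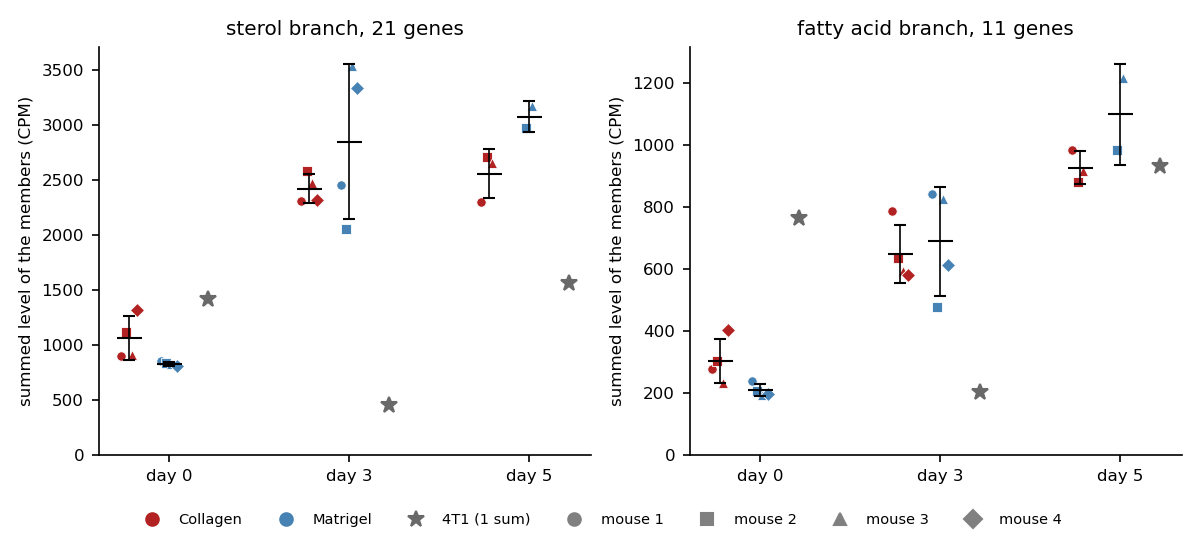
Summed level (CPM, linear axes from 0) of the 21 sterol genes and the 11 fatty acid genes against the day, with 1 point per mouse (shape) in collagen (red) and Matrigel (blue), the group mean ± SD in black, and 1 sum of 4T1 cells per pool (star). Tumour cells were higher on day 3 than on day 0 in every mouse, while the 4T1 sums were lowest on day 3, at 449 and 202 CPM.

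Each gene was tested with edgeR's quasi-likelihood test and Benjamini-Hochberg adjustment over all 13184 genes tested, and a gene was taken to have changed at an adjusted p under 0.05. In collagen 26 of the 32 genes were higher on day 3 than on day 0 and 0 were lower, against 9.33% of all genes tested that were higher and 10.2% that were lower. In Matrigel 28 of 32 were higher and 0 lower, against 19.4% of all genes higher and 19.7% lower. The median log2 fold change of the 32 was 1.00 in collagen and 1.68 in Matrigel, with medians of all genes at 0.01 or nearer to 0. With the mouse as a block, a fit that compares cells of the same animal, 27 and 29 of the 32 were higher, against 18.2% and 26.7% of all genes. Day 3 and day 0 mice did not overlap for 24 of the 32 genes in collagen and 26 in Matrigel, all higher on day 3, against 11% and 14.6% of all genes.

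All 7 genes of the mevalonate part rose in both matrices. Fdps (chr3:89093588-89101959, GRCm38, minus strand), the synthase of farnesyl pyrophosphate, had 588, 625, 589 and 517 CPM on day 3 in collagen, against 126, 148, 127 and 204 CPM on day 0. In Matrigel Fdps had 602, 444, 835 and 632 CPM on day 3, against 82.9, 87.0, 87.9 and 77.6 CPM on day 0. The lowest day 3 mouse was above the highest day 0 mouse in both gels, and the log2 fold changes were 1.94 ± 0.17 (SE, adjusted p = 2.55e-07, edgeR) in collagen and 2.91 ± 0.17 (adjusted p = 1.11e-09) in Matrigel. Mvk (chr5:114444269-114460591, plus strand), mevalonate kinase, had 36.9, 45.3, 40.6 and 36.6 CPM on day 3 in collagen, against 17.4, 18.5, 12.3 and 20.7 CPM on day 0. In Matrigel Mvk had 48.5, 44.6, 77.3 and 81.7 CPM on day 3, against 9.50, 6.63, 7.22 and 6.57 CPM on day 0. Mice 3 and 4 were the high ones on day 3 in Matrigel, and the log2 fold change there was 3.08 ± 0.21 (adjusted p = 4.69e-09, edgeR) against 1.22 ± 0.20 (adjusted p = 0.000298) in collagen.

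The next kinase Pmvk and the decarboxylase Mvd, which make isopentenyl pyrophosphate, rose by 1.67 and 1.30 on the log2 scale in collagen and by 2.80 and 2.67 in Matrigel. Acat2, the cytosolic thiolase of the first step, rose by 1.31 and 2.42, and the isomerase Idi1 by 1.07 and 1.77. Hmgcs1, the synthase whose promoter window is shown above, had 132, 159, 114 and 161 CPM on day 3 in collagen, against 80.3, 90.4, 55.0 and 108 CPM on day 0. In Matrigel Hmgcs1 had 169, 109, 178 and 232 CPM on day 3, against 61.3, 79.8, 48.2 and 78.7 CPM on day 0. Its log2 changes, 0.76 ± 0.24 (adjusted p = 0.0324, edgeR) in collagen and 1.36 ± 0.24 (adjusted p = 0.000248) in Matrigel, were the smallest of the 7.

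Between squalene and cholesterol, 9 of 11 genes rose in collagen and 10 of 11 in Matrigel. Ebp, the sterol isomerase, and Nsdhl, a demethylating dehydrogenase, led in collagen with log2 changes of 1.64 and 1.43. In Matrigel the largest were Tm7sf2, a sterol reductase, at 2.53 ± 0.48 (SE) and Nsdhl at 2.26 ± 0.20. Tm7sf2 was low, at 0.47 to 1.26 CPM in Matrigel on day 0. Lanosterol synthase Lss, lanosterol demethylase Cyp51 and squalene synthase Fdft1 rose by 0.94, 1.32 and 1.13 on the log2 scale in collagen and by 1.94, 1.93 and 1.47 in Matrigel. Squalene epoxidase Sqle, a flux-controlling enzyme, rose by 0.80 and 1.17.

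The last reductase, Dhcr7, did not pass in either gel. Dhcr7 had 26.6, 30.9, 30.4 and 30.1 CPM on day 3 in collagen, against 31.6, 21.4, 35.1 and 25.5 CPM on day 0, and 31.0, 33.4, 39.8 and 45.9 CPM on day 3 in Matrigel, against 37.2, 29.1, 35.2 and 44.9 CPM on day 0. The days overlapped in both gels, with log2 values of 0.05 ± 0.18 (SE) in both gels. Sc5d, the lathosterol desaturase, passed in Matrigel at 1.13 (adjusted p = 0.00207, edgeR) and in collagen only with the mouse block (log2 0.61, adjusted p = 0.108; with the block 0.65, adjusted p = 0.00277).

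Of the 3 regulators and carriers, 1 rose in collagen and 2 rose in Matrigel. Insig1, itself a classical SREBP target, had 45.9, 43.1, 35.1 and 38.4 CPM on day 3 in collagen, against 29.8, 36.7, 21.5 and 54.9 CPM on day 0. In Matrigel Insig1 had 49.6, 35.2, 81.7 and 78.2 CPM on day 3, against 41.5, 48.1, 35.9 and 61.2 CPM on day 0. Both pairs of groups overlapped, and neither change passed (log2 0.20 ± 0.26 and 0.40 ± 0.26, adjusted p = 0.649 and 0.234, edgeR). Stard4, a carrier that moves sterol between membranes, rose by 0.87 in collagen (adjusted p = 0.00601, edgeR) and 2.06 in Matrigel (adjusted p = 7.28e-07).

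Srebf2 was 68.6, 66.5, 76.7 and 51.4 CPM on day 3 in collagen, against 40.0, 114, 44.1 and 44.5 CPM on day 0. The day 0 value of mouse 2 rests on 1 cell that held 267 of the 432 Srebf2 UMIs of its sum. That cell, of the cluster 9 of few UMIs, had 5216 UMIs, and Srebf2 was its second most counted gene. Without it mouse 2 had 43.6 CPM, close to the other mice. With it the change in collagen was 0.12 ± 0.25 (log2, adjusted p = 0.782, edgeR), and without it 0.62 ± 0.14 (adjusted p = 0.0032). In Matrigel Srebf2 had 53.7, 54.5, 71.4 and 56.1 CPM on day 3, against 39.7, 39.4, 33.8 and 30.3 CPM on day 0, and rose by 0.72 on the log2 scale (adjusted p = 0.0305, edgeR).

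Of the fatty acid branch, 9 of 11 genes rose in each gel. Scd1 (chr19:44394455-44407879, minus strand), the stearoyl-CoA desaturase that makes oleate, had 110, 80.3, 92.3 and 74.2 CPM on day 3 in collagen, against 18.8, 26.4, 17.7 and 27.3 CPM on day 0. In Matrigel Scd1 had 166, 68.2, 159 and 57.5 CPM on day 3, against 8.74, 8.01, 5.47 and 7.20 CPM on day 0. No mouse overlapped between the days, and the change was 3.99-fold in collagen (adjusted p = 0.000249, edgeR) and 15.1-fold in Matrigel (adjusted p = 1.19e-07). Fads2, the first desaturase of polyunsaturated fatty acids, was low but rose by 2.78 ± 0.32 and 2.79 ± 0.30 on the log2 scale. Fads2 had 7.50 to 11.3 CPM on day 3 in collagen and 0.82 to 2.42 CPM on day 0, and 6.34 to 14.3 CPM on day 3 in Matrigel and 1.05 to 1.75 CPM on day 0.

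Scd2 (chr19:44293674-44306864, plus strand), the neighbouring desaturase on chromosome 19, had 267, 196, 179 and 154 CPM on day 3 in collagen, against 65.7, 63.2, 32.7 and 135 CPM on day 0. In Matrigel Scd2 had 243, 140, 251 and 149 CPM on day 3, against 17.7, 28.0, 7.92 and 27.1 CPM on day 0. Much of the day 0 signal lay in the cells of the 4T1 cluster, which held 33.3% to 79.1% of the Scd2 UMIs of each collagen sum and 39.7% to 84.7% of each Matrigel sum. In collagen of mouse 4, 11 of 229 cells held 310 of 392 Scd2 UMIs. The 4T1 line itself had 422 CPM of Scd2 on day 0. Without these cells Scd2 on day 0 was 38.5, 29.8, 23.1 and 44.3 CPM in collagen and 7.86, 4.87, 4.71 and 8.14 CPM in Matrigel (unscaled CPM). The rise by day 3 was 1.43 ± 0.37 on the log2 scale in collagen and 3.28 ± 0.39 in Matrigel with these cells, and 2.75 ± 0.24 (adjusted p = 2.7e-07, edgeR) and 5.03 ± 0.27 (adjusted p = 1.64e-10) without them. The log2 change of the summed fatty acid branch in collagen was 1.12 with them and 1.48 without.

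Fatty acid synthase Fasn rose by 0.97 on the log2 scale in collagen (adjusted p = 0.00111, edgeR) and 0.72 in Matrigel (adjusted p = 0.00457). The carboxylase Acaca, which makes malonyl-CoA, rose by 0.69 and 1.20, and the elongase Elovl6 by 1.31 and 2.23. Fads1, the second polyunsaturated desaturase, rose by 0.86 and 1.58, and Aacs, which activates acetoacetate for lipid synthesis, by 0.99 and 1.00. Srebf1 had 47.8, 37.4, 38.4 and 25.1 CPM on day 3 in collagen, against 21.5, 28.0, 18.0 and 23.1 CPM on day 0, a change of 0.73 (adjusted p = 0.0137, edgeR) whose groups overlapped. In Matrigel Srebf1 had 43.2, 28.0, 30.8 and 23.5 CPM on day 3, against 13.7, 12.2, 12.7 and 11.9 CPM on day 0, with no overlap and a change of 1.29 (adjusted p = 7.77e-05, edgeR).

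The 2 enzymes that supply cytosolic acetyl-CoA did not pass. Acly, ATP citrate lyase, had 67.5, 67.7, 70.9 and 51.1 CPM on day 3 in collagen, against 46.5, 54.2, 61.2 and 60.7 CPM on day 0. In Matrigel Acly changed by 0.38 on the log2 scale, which passed only with the mouse block (adjusted p = 0.0742; with the block 0.0161, edgeR). Acss2, acetyl-CoA synthetase, lay between 1.42 and 7.60 CPM in all 21 sums. Without the cells of the 4T1 cluster both passed in Matrigel (Acly 0.43, adjusted p = 0.0446; Acss2 1.09, adjusted p = 0.0453, edgeR), which made 30 of 32. Of the 32 genes, 8 share exon sequence with another counted gene (Hmgcs1, Fdps, Cyp51, Fdft1, Tm7sf2, Srebf1, Acss2 and Elovl6), and for 2 of these, Fdps and Tm7sf2, it lies on the same strand. No source used here says whether counting used strand, so part of their counts is uncertain.

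**Figure D2:**
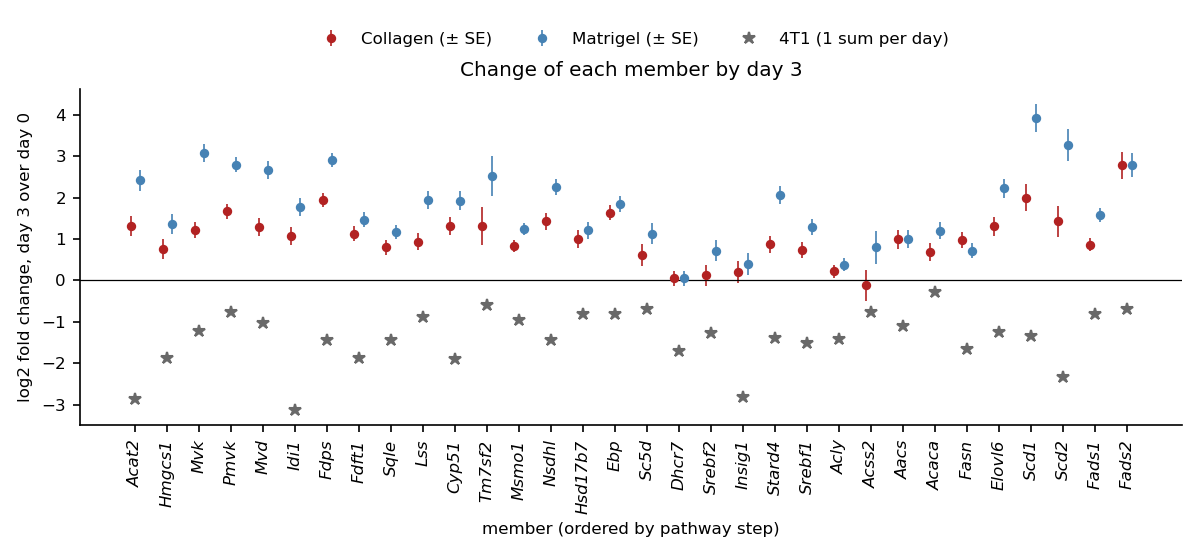
Log2 fold change from day 0 to day 3 of each of the 32 genes, in collagen (red) and Matrigel (blue) with the SE of the edgeR fit, and in 4T1 cells (stars, log2 of CPM + 5, 1 sum per day, no error). Matrigel points lie above collagen points for most genes, Dhcr7 lies at 0.05 in both gels, and all 32 stars lie below 0.

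On day 0 the summed counts of collagen cells held more of both branches than those of Matrigel cells of the same mice. The sterol branch was 1061 ± 199 CPM in collagen and 828 ± 17.1 CPM in Matrigel (SD, n = 4 mice each), 1.27-fold higher, and higher in 4 of 4 mice. Cell by cell, the median share of UMIs from sterol genes was 6.576, 6.92, 6.844 and 6.65 per 10000 in collagen (mice 1 to 4). In Matrigel it was 6.434, 6.535, 6.192 and 7.257, so in mouse 4 the collagen share was the lower one. The fatty acid branch was 303 ± 71.6 CPM in collagen and 208 ± 19.9 CPM in Matrigel, 1.43-fold higher in 4 of 4 mice. The 6 basal markers had a median log2 difference of 1.5 at this time (0 passing, 3 higher in collagen with the mouse block) and the 7 luminal markers one of -0.26 (0 passing, 3 lower with the block). The median mitochondrial share of a cell's counts was 3.59% in collagen and 2.45% in Matrigel. The part of these in the result was not tested. In log2 units the difference of the fatty acid branch was 0.52, and 0.35 without the cells of the 4T1 cluster. Of the 32 genes, 9 were higher in collagen and 0 lower, against 4.15% of all genes higher and 2.88% lower, and with the mouse block 13 were higher, against 12.5% of all genes.

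The 9 were Mvk (log2 1.19), Pmvk (0.69), Mvd (1.06), Fdps (0.85) and Nsdhl (0.75) of the sterol branch, and Srebf1 (0.84), Scd1 (1.60), Scd2 (1.88) and Fads1 (0.64) of the fatty acid branch. Mvk had 17.4, 18.5, 12.3 and 20.7 CPM in collagen, against 9.50, 6.63, 7.22 and 6.57 CPM in Matrigel. Scd1 had 18.8, 26.4, 17.7 and 27.3 CPM in collagen, against 8.74, 8.01, 5.47 and 7.20 CPM in Matrigel. Neither gene's groups overlapped (adjusted p = 0.00258 and 0.00816, edgeR). Without the cells of the 4T1 cluster Scd2 differed by 2.32 ± 0.25 (adjusted p = 7.79e-05, edgeR), and Fads1 no longer passed (log2 0.49, adjusted p = 0.125).

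The mouse block added Acat2 (log2 0.79, adjusted p = 0.0113, edgeR), Lss (0.60, 0.0488), Stard4 (0.66, 0.00925) and Srebf2 (0.72, 0.0334). The Srebf2 difference was 0.27 ± 0.14 (adjusted p = 0.247, edgeR without the block) without the single cell named above. The day 0 count depended on single mice, being 1 without mouse 1, 0 without mouse 2, 4 without mouse 3 and 6 without mouse 4. For the fits that leave out a mouse the share of all genes is not given, so these counts do not compare the members with other genes. Markers of mitosis (8 genes) included 1 gene that passed at this time, the cyclin Ccnb2, 1.51 higher in collagen, and with the mouse block 5 of the 8 were higher. Their part in the result was not tested. Insig1 and Dhcr7 were lower in collagen in all 4 mice, without passing (log2 -0.40 and -0.36).

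On days 3 and 5 the day 0 difference was not seen. The sterol branch on day 3 was 2421 ± 132 CPM in collagen and 2850 ± 706 CPM in Matrigel (n = 4 each), and it was higher in collagen in 1 of 4 mice. On day 5 it was 2556 ± 223 CPM in collagen (n = 3) and 3076 ± 142 CPM in Matrigel (n = 2), and the fatty acid branch 927 ± 53.2 CPM and 1100 ± 164 CPM. Of the 32 genes, 0 passed on day 3, against 0.167% of all genes higher and 0.0379% lower in collagen, and 0 on day 5, against 0.326% higher and 0.129% lower. At an unadjusted p under 0.05 edgeR gave 5 of the 32 on each of these days, against 9.88% of all genes on day 3 and 12.0% on day 5. DESeq2 called 1 on each day, against 1.37% and 2.09% of all genes. With the mouse block, 1 gene, Mvk, was lower in collagen on day 3 (log2 -0.65, adjusted p = 0.0467, edgeR), against 1.66% of all genes. On day 5 that fit had Pmvk (-0.72, 0.0411) and Fads1 (-0.61, 0.041) lower, against 2.67% of all genes.

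The change of the matrix difference, the collagen over Matrigel log2 difference of the later day minus that of day 0, was tested directly. By day 3 the change was above 0 for 2 of the 32 genes, and the median of the 32 was -0.61. It passed for 1, Mvk (-1.86 ± 0.28, adjusted p = 0.0318, edgeR), against 0.0303% of all genes with a negative change. With the mouse block it passed for 10 of 32, all negative, against 3.13% of all genes. By day 5 it passed for 4, against 0.713% of all genes, and for 12 with the block, against 7.34%. The 4 were Mvk (-1.58, adjusted p = 0.0239), Pmvk (-1.47, 0.022), Scd1 (-2.09, 0.0483) and Fads1 (-1.16, 0.0378, all edgeR). Each of these 4 was also higher in collagen on day 0. Without the cells of the 4T1 cluster, Scd2 passed by day 3 (-2.28, adjusted p = 0.0176, edgeR) and by day 5 (-2.35, 0.0184). By day 5 Scd1 (-2.10, 0.052) and Fads1 (-1.01, 0.102) then no longer passed. Leaving out mouse 1, 2 or 3 left 0 of the 4, and leaving out mouse 4 left 3. The day 3 call of Mvk was lost without any 1 of the 4 mice, at log2 values of -2.05 to -1.53. The 8 mitosis genes also had negative changes, with a median of -0.64 by day 3 and -1.05 by day 5 and 0 passing. With the block 1 of the 8 passed by day 3 (Ccnb2) and 4 by day 5 (Ccnb2, Mki67, Ccnb1 and Plk1), and their part in the result was not tested.

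**Figure D3:**
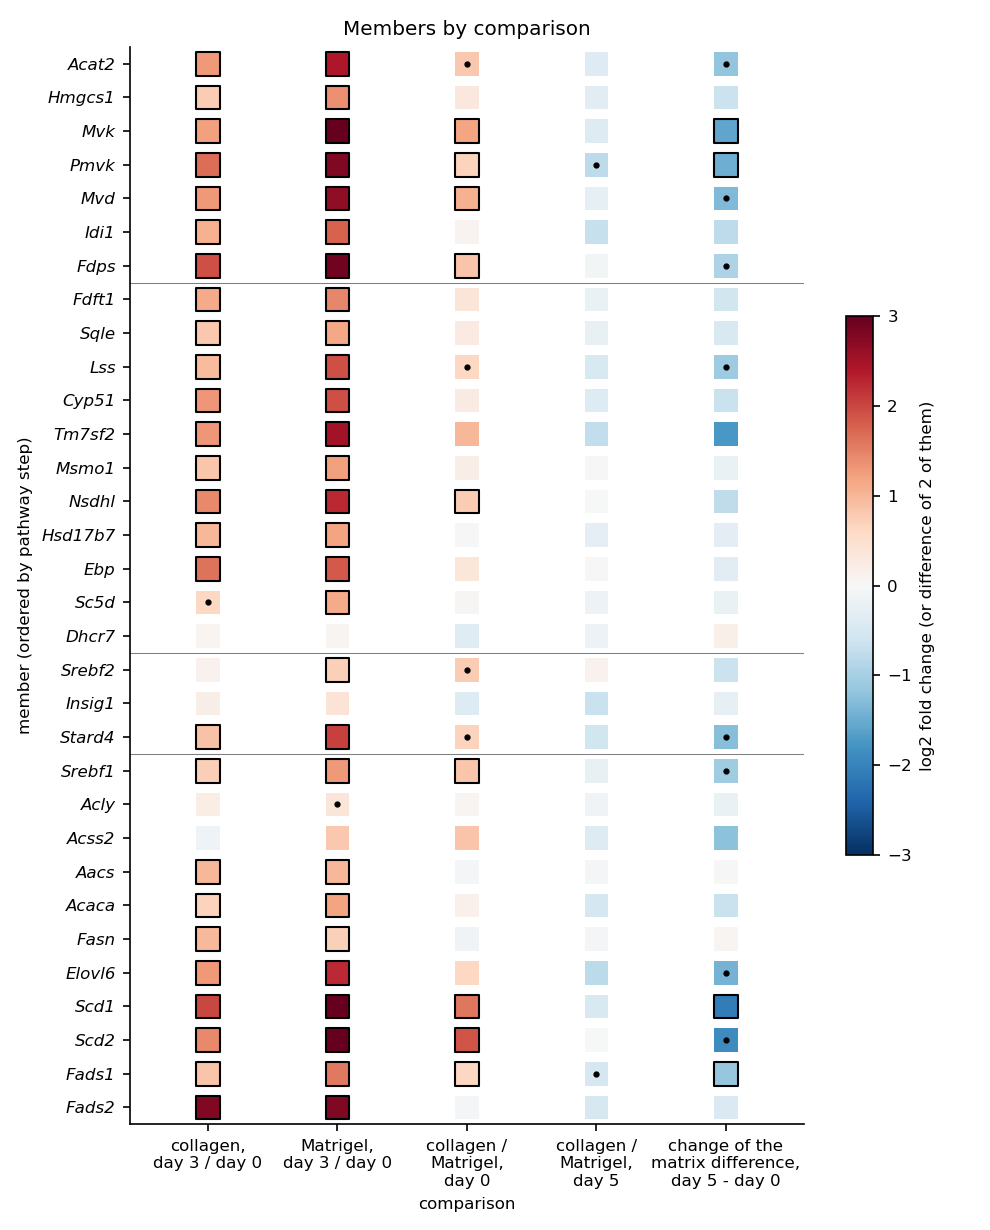
Log2 values (colour, red higher, blue lower) of the 32 genes, ordered by pathway step and divided into mevalonate genes, squalene to sterol genes, regulators and carriers, and the fatty acid branch, in 5 comparisons. Black frames mark an adjusted p under 0.05 (edgeR), and dots mark genes that passed only with the mouse block. Frames fill most of both day 3 over day 0 columns, 9 cells of the day 0 matrix column and 4 of the last column.

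Between day 3 and day 5 the summed sterol branch differed by less than the spread between mice, and the fatty acid branch was higher on day 5 in every mouse measured on both days. The sterol branch was 1.05-fold higher on day 5 than on day 3 in collagen and 1.11-fold in Matrigel. The fatty acid branch was 927 ± 53.2 CPM on day 5 (n = 3) and 649 ± 94.2 CPM on day 3 (n = 4) in collagen, and higher in 3 of 3 mice. In Matrigel it was 1100 ± 164 CPM on day 5 (n = 2) and 689 ± 175 CPM on day 3 (n = 4), and higher in 2 of 2 mice. The 4T1 cells of the same pools were also higher on day 5, at 932 CPM against 202 CPM on day 3 for the fatty acid branch. Their sterol branch was 1563 CPM against 449 CPM (1 sum per day, not tested). In collagen 1 of the 32 genes rose, against 0.683% of all genes, and in Matrigel 2 rose, against 1.46% of all genes. Srebf1 was among them in both gels.

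Srebf1 had 68.6, 60.9 and 73.7 CPM on day 5 in collagen, against 47.8, 37.4, 38.4 and 25.1 CPM on day 3. In Matrigel Srebf1 had 64.0 and 94.0 CPM on day 5, against 43.2, 28.0, 30.8 and 23.5 CPM on day 3. The groups did not overlap in either gel, and the changes were 0.85 ± 0.20 (log2, adjusted p = 0.0488, edgeR) in collagen and 1.36 ± 0.24 (adjusted p = 0.00477) in Matrigel. Fads1 had 62.8 and 67.5 CPM on day 5 in Matrigel, against 39.1, 28.0, 38.2 and 34.7 CPM on day 3 (log2 0.90 ± 0.19, adjusted p = 0.0172, edgeR). In collagen 4 genes passed with the mouse block, against 4.64% of all genes, which added Dhcr7 (0.54, adjusted p = 0.0356), Acly (0.49, 0.0235) and Fads1 (0.47, 0.0342, edgeR). The collagen call of Srebf1 was lost without the cells of the 4T1 cluster and without mouse 1, 2 or 3, at log2 values of 0.79 to 0.98. Both Matrigel calls were lost without mouse 2 or mouse 3, each of which leaves 1 Matrigel sum on day 5, assumed to vary like the other groups.

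**Figure D4:**
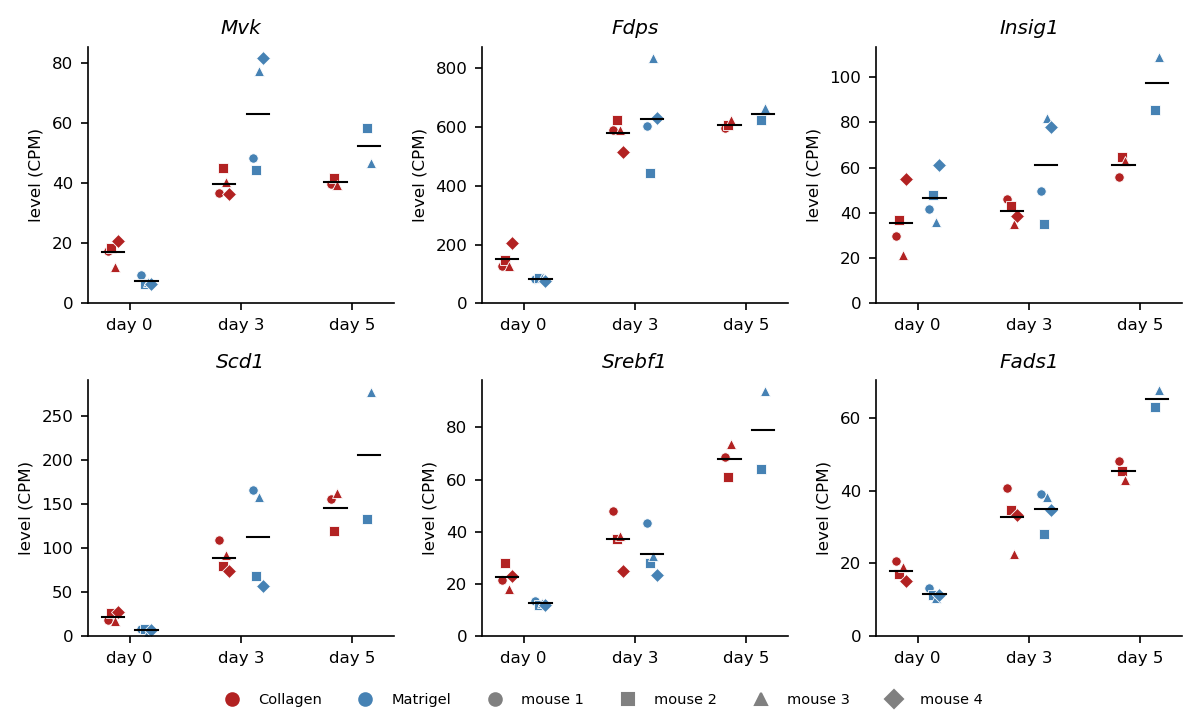
Level (CPM, linear axes from 0) of Mvk, Fdps, Insig1, Scd1, Srebf1 and Fads1 by day, with 1 point per mouse (shape), collagen in red left of Matrigel in blue, and the group mean as a bar. Mvk, Fdps and Scd1 lie clearly apart between day 0 and day 3, Insig1 overlaps, and Srebf1 is higher again on day 5.

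Cell by cell, the share of a cell's UMIs that came from the branch was also higher on the later days. The median sterol share per mouse in collagen was 6.58 to 6.92 UMIs per 10000 on day 0, 18.6 to 22.2 on day 3 and 23.5 to 25.5 on day 5. In Matrigel the medians were 6.19 to 7.26, 12.1 to 30.2 and 28.3 to 30.7. The median fatty acid share was 1.43 to 2.15, 4.69 to 6.53 and 8.17 to 8.80 in collagen, and 1.10 to 1.87, 2.87 to 6.99 and 9.43 to 12.1 in Matrigel, on the same days. On day 0 the median shares of the 2 gels overlapped for both branches, while the summed levels did not overlap for the sterol branch. Cells without any fatty acid branch UMI made up 13.2% to 42.4% in collagen and 10.7% to 40.5% in Matrigel on day 0, when depth was lowest. With cells thinned to 2000 UMIs, which left out 84 of 939 cells on day 0 and 11 of 2477 on day 3 in collagen, and 138 of 1701 on day 0 and 19 of 687 on day 3 in Matrigel, the log2 rise of the sterol branch by day 3 was 1.09 in collagen and 1.54 in Matrigel, and that of the fatty acid branch 1.26 and 1.72. Without cells under 10000 UMIs, 27 of the 32 genes rose by day 3 in collagen, against 9.57% of all genes, and 28 in Matrigel, against 19.8%.

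Over the 24 clusters of cells, given as a description, the sterol level was highest in cluster 20, at 3415 CPM. That cluster of 143 cells is led by histone genes such as Hist1h1b, and 110 of its cells were from Matrigel and 137 from day 3, and 1 mouse gave more than 10 of them. Fatty acid genes were highest in cluster 8 (404 cells), at 1089 CPM. Its leading genes include the milk protein gene Csn1s1, Trf, Wfdc18 and Elf5, a transcription factor of milk-secreting cells. They also include Cxcl10, Rsad2 and Ifit1, genes of the interferon response. Of the cells of cluster 8, 209 were from day 5, 126 from day 3 and 69 from day 0. The summed fatty acid branch was highest on day 5 in both gels, and the part of the day in the level of cluster 8 was not tested. The sterol level of cluster 8 was 2444 CPM, inside the range of clusters made mostly of day 3 and day 5 cells. Macrophage-like cells, left out of the sums, had 564 CPM of sterol genes and 191 CPM of fatty acid genes.

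The 4T1 cells had less of both branches on day 3 than on day 0. Their sterol branch was 1421 CPM on day 0, 449 CPM on day 3 and 1563 CPM on day 5, and the fatty acid branch 764, 202 and 932 CPM. Exact Poisson 95% intervals, which cover counting error only, were 1395 to 1447, 438 to 461 and 1516 to 1611 CPM for the sterol branch. There was 1 sum per day, of 98, 196 and 19 cells, so these differences have no replicate check and no test. By log2(CPM + 5), all 32 genes were lower on day 3 than on day 0, by -3.12 to -0.29, and 21 were at least 2-fold lower, against 3.42% of all genes. On day 5, 26 of the 32 were at least 2-fold higher than on day 3, against 4.22% of all genes, and 0 differed 2-fold from day 0, against 0.319% of all genes higher and 0.121% lower.

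Idi1 had 118, 9.16 and 97.5 CPM on days 0, 3 and 5 in 4T1 cells. Acat2 had 72.9, 5.64 and 80.7 CPM, and Insig1, which did not pass in tumour cells, 70.0, 5.72 and 57.4 CPM. These 3 genes had the lowest log2 values of the 32 between day 3 and day 0 in 4T1 cells, and on day 5 each was within 2-fold of day 0. All 8 mitosis genes were also at least 2-fold lower in 4T1 cells on day 3 (median log2 -1.53), and their part in the result was not tested. The tumour cells of the same day 3 pool had both branches above day 0.

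Neighbouring lists of lipid genes were read beside the members. By day 3, 9.33% of all genes tested rose and 10.2% fell in collagen, and 19.4% rose and 19.7% fell in Matrigel. With the mouse block 18.2% rose in collagen and 26.7% in Matrigel. The share of all genes that fell with the block is not given, so genes that fell in that fit are not compared with all genes. Of 12 genes of SREBP processing and sterol traffic, 0 passed between day 3 and day 0 in collagen, and with the mouse block Npc2, Soat1 and Stard3 were higher and Vldlr lower. In Matrigel 2 were higher (Soat1, which esterifies cholesterol, at log2 1.41, and Tmem97 at 0.92) and 1 lower (the SREBP protease gene Mbtps2, -0.67), and with the block 3 and 2. The 2 of 12 higher in Matrigel, and the 3 of 12 with the block, lie near the shares of all genes. Of 6 genes of sterol efflux and LXR response, 3 rose in collagen, namely the exporters Abca1 (2.21) and Abcg1 (1.60) and the lysophospholipid acyltransferase Lpcat3 (1.22). In Matrigel Lpcat3 rose (1.22) and Mylip fell (-0.90), and the change of the matrix difference passed for none of the 6 without the block (with the block Abcg1 by day 5, log2 2.42, adjusted p = 0.0259, edgeR). On day 5 Abcg1 was 2.46 higher in collagen than in Matrigel (adjusted p = 0.0494, edgeR).

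Of 8 genes of fatty acid oxidation, which breaks fatty acids down in mitochondria, 4 rose by day 3 in collagen and 5 in Matrigel, with 0 lower, and with the mouse block 6 in each. Of all genes tested, 9.33% rose in collagen and 19.4% in Matrigel, and 18.2% and 26.7% with the block. The acyl-CoA dehydrogenases Acadvl and Acadm rose by 0.79 and 0.54 in collagen and 1.17 and 1.26 in Matrigel. Of 11 tested genes of fatty acid use and storage, 3 rose in each gel, namely the phosphatidate phosphatase gene Lpin1 (1.41 in collagen, 2.17 in Matrigel), Acsl3 (0.97 and 0.99) and the mitochondrial citrate carrier gene Slc25a1 (1.01 and 2.09). In Matrigel 3 of 11 lies near the share of all genes. Dgat2, of the last step of triglyceride synthesis, fell in Matrigel (-1.23). With the block 5 of the 11 rose in collagen, and 4 rose and 3 fell in Matrigel. The 4 of 11 lies near the share of all genes that rose with the block, and the share that fell is not given. Slc25a1 was also higher in collagen than in Matrigel on day 0 (0.95, adjusted p = 0.0134, edgeR), as were Acadm (0.80) and Acadvl (0.70). With the block Hadhb (0.36) was higher in collagen on day 0 as well, while Me1 (-0.65), Dgat2 (-0.82) and Cpt1a (-0.68) were lower. Of the 8 mitosis genes, 0 passed by day 3 in collagen and 4 rose in Matrigel (Ccnb2, Plk1, Mki67 and Cenpe). With the block Ccnb2 rose in collagen and 7 of the 8 rose in Matrigel, and their part in the rise of the synthesis genes there was not tested.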

How the data were processed

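The deposited matrix gives the authors' raw UMI counts of each gene in 7620 cells, and their deposited cell annotation gives day, mouse and matrix, a total count, which matched the matrix in all 7620 cells, and a mitochondrial fraction per cell. The library chemistry was 10x Genomics 3' version 2 with MULTI-seq sample barcodes, per the labels' protocols, and Cell Ranger 3.0.2 and Scanpy 1.4.4 are named in the submitters' processing notes; the annotation release and the use of strand in counting are not given in the sources used here. Coordinates are those of GENCODE vM21 (GRCm38), in which 20574 of 20605 identifiers were found.

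Cells were scaled to 10000 counts and clustered on 2000 variable genes, 30 principal components and 15 neighbours (Scanpy 1.11.5, leidenalg 0.10.2, resolution 1.0), and clusters were named from fixed markers. No doublet caller was run. Counts of at least 20 cells were summed per mouse, matrix and day. edgeR 4.0.16 (R 4.3.3) tested 13184 genes in 1 quasi-likelihood fit of 6 groups with TMM scaling (common dispersion 0.0853), with Benjamini-Hochberg adjustment per comparison. CPM use TMM-scaled totals unless called unscaled. The 4T1 sums used log2 of CPM with a pseudocount of 5 and no test. Branch sums were not tested. Named genes were members that passed with or without the mouse block, and the others were read by levels, with up to 4 passing genes of each other list. The members and lists were chosen with earlier results of these data known.

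The same 4 animals gave both gels and all days, so mice pair the sums. The median correlation of deviations from the group means was 0.304 for sums sharing a mouse (0.0723 to 0.685) and -0.108 otherwise, and each of 21 sums was closest to its own mouse. The 28 pairs of replicate sums differed by more than counting noise (8.02 to 70.4 in chi-square over degrees of freedom). On simulated counts for collagen, day 3 over day 0 (12841 genes), 42 of 99 genes changed 2-fold and 81 of 98 changed 4-fold were called, with 7 unchanged genes called.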

Additional observations from a re-analysis of the deposited data

Results flagged for a closer look

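Of 136 groups of 4 mice examined over the genes and branches, 4 had a mouse far from the other 3 by Dixon's criterion, which chance gives in about 1 of 20 groups. Pmvk stood at 64.2 CPM in collagen on day 0 in mouse 4, whose cells of the 4T1 cluster held 38.2% of its Pmvk UMIs. Without the cells of that cluster mouse 4 still had 62.1 CPM of Pmvk, against 40.8, 45.2 and 43.9 CPM in mice 1 to 3 (unscaled CPM). Srebf2 stood at 114.2 CPM in collagen on day 0 in mouse 2, where 1 cell held 267 of 432 UMIs. In Matrigel on day 3, mouse 3 had 71.4 CPM of Srebf2 and 7.60 CPM of Acss2.

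The change of the matrix difference between days passed for Mvk by day 3 (-1.86) and by day 5 (-1.58), and by day 5 for Pmvk (-1.47), Scd1 (-2.09) and Fads1 (-1.16), all on the log2 scale.

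Between day 3 and day 0 the 4T1 sums differed by -1.66 on the log2 scale for the sterol branch and -1.92 for the fatty acid branch, while the tumour cells of every mouse were higher on day 3. That difference between 4T1 and tumour cells was not tested, since the line has 1 sum per pool.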

How the results depend on the processing

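Of 100 single-gene results followed, 0 reversed under any alternative, and 155 of 162 branch values stayed within the spread between mice. With the mouse as a replicate block, genes passing were 1 between the gels on day 3, 2 on day 5, 4 between day 5 and day 3 in collagen, and 10 and 12 for the change of the matrix difference by days 3 and 5. DESeq2 gave 1 and 1 between the gels on days 3 and 5, and 7 and 10 for that change. For that change under DESeq2, and for the fits that follow, the share of all genes passing is not given. Those counts show how the calls move with the fit, and do not compare the members with other genes. Fits of only the groups compared gave 5 on day 0, 0 for day 5 over day 3 in collagen and in Matrigel, and 0 for the change by day 3. With no filter on low counts there were 0 for day 5 over day 3 in collagen, and 0 and 2 for the change by days 3 and 5. Without the 4T1 cluster's cells there were 0 for day 5 over day 3 in collagen and 2 and 3 for the change by days 3 and 5. With all cells kept the change by day 3 had 0, and the 12 results followed for the change by day 5 stayed the same. With sums of at least 10 cells there was 1 gene between the gels on day 5 and 8 for the change by day 5.

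Leaving out each mouse in turn gave 18 to 27 genes for day 3 over day 0 in collagen, 27 to 28 in Matrigel, 0 to 6 between the gels on day 0, 0 to 1 and 0 to 2 for day 5 over day 3 in collagen and Matrigel, and 0 to 0 and 0 to 3 for the change by days 3 and 5. The day 5 fatty acid difference between the gels ran from -0.36 to -0.08 (log2).

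With cells thinned to 2000 UMIs the day 5 gel difference was -0.08 for the sterol branch (-0.27 unthinned) and -0.09 for the fatty acid branch (-0.24), the fatty acid rise from day 3 to day 5 in collagen 0.71 (0.52), and its change of the matrix difference by day 5 -0.5 (-0.76). As a mean over cells, day 5 over day 3 in collagen was 0.19 for the sterol branch (0.08 summed) and 0.69 for the fatty acid branch. Without the 4T1 cluster's cells, the fatty acid rise by day 3 in collagen was 1.48 (1.12). The cause of these shifts was not tested. Leaving out cells under 10000 UMIs, the single Srebf2-rich cell, and the 4T1 pseudocount of 1 (26 genes at least 2-fold lower, against 21) were chosen after seeing the data. Precision is limited by the 2 Matrigel mice of day 5 and by the lower depth of day 0 cells.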
